A study of Homo sapiens with 12 samples.

Results

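The comparison described here is SAHA against its DMSO vehicle in NCI-H1299, an established line of human non-small-cell lung carcinoma. It takes in 6 of the 12 libraries of the series, 3 from cells given SAHA (vorinostat) and 3 from cells given DMSO, all collected after 24 h. All genes of the H1299 table were used: 58302 genes, of which 17277 had enough counts to be tested. The labels list SAHA at 0, 2.5, 10 and 40 µM with DMSO at 0.1%, and do not say which dose the sequenced cells received. They mark the libraries of each group as repeats 1 to 3 and do not say that these were separate cultures. P-values therefore measure the spread between these libraries, which may be technical.

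Histone deacetylases remove acetyl groups from lysines of histones and of many other proteins. SAHA, a hydroxamic acid, blocks the zinc-dependent members of the family by binding the metal in their catalytic pocket. Acetylated histones are typical of active promoters and enhancers, and a deacetylase inhibitor is known both to raise genes that are silent in a cell and to lower genes that are highly transcribed. The description below therefore sorts genes by their level before treatment, by function and by class of transcript.

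The column totals ran from 15239483 to 16160282 counts with DMSO and from 14416126 to 16016332 with SAHA, and mitochondrially encoded genes took 2.12 ± 0.14% of counts with DMSO and 4.10 ± 0.12% with SAHA (mean ± SD, n = 3). Levels are given as the deposited FPKM (counts scaled to transcript length and library size), which can be compared between genes, and as mean ± SD of 3 libraries. Changes are log2 fold changes of the counts, SAHA against DMSO, ± SE from edgeR. All values are shares of a library, so a change in cell number or in total RNA per cell cannot be seen. The share of a gene also depends on the rest of the library. Of 12 markers of the labelled epithelial origin, only 2 were at 1 FPKM or more with DMSO. These were KRT8 and KRT18, the simple-epithelium keratins, at 16.0 ± 0.2 and 62.8 ± 0.7 FPKM. The other 10, among them the simple-epithelium keratins KRT7 and KRT19, were below 1 FPKM. CDH1, ELF3, KRT5 and KRT14 were listed at 0 in every DMSO library and EPCAM stayed under 0.12 FPKM, so junctional and basal epithelial markers were absent or nearly so. With SAHA KRT8 read 45.7, 49.8 and 49.7 FPKM (log2 1.53 ± 0.08) and KRT18 131, 136 and 148 (1.07 ± 0.09). Of the 12 epithelial markers 7 were tested, 3 were higher and none lower, and their summed level had a mean of 80.3 FPKM with DMSO and 189 with SAHA. The 10 lymphoid markers summed to 0.196 to 0.375 FPKM with DMSO and 0.504 to 0.620 with SAHA, and none reached the test. MS4A1, a B-cell gene, and TYROBP, a myeloid adaptor, were at 0 in all 6 libraries.

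Markers of other lineages moved at low level with SAHA. COL1A1, the type I collagen chain of fibroblasts, read 0.137, 0.068 and 0.134 FPKM with DMSO and 3.10, 3.88 and 2.71 with SAHA (log2 4.77 ± 0.24). CSF1R, the macrophage colony-stimulating factor receptor, rose from 0.0224 ± 0.0199 to 1.09 ± 0.12 FPKM. KDR, the endothelial VEGF receptor, rose from 0.144 ± 0.032 to 1.97 ± 0.45 FPKM (log2 3.69 ± 0.24). For each of the 3 genes every SAHA library lay above every DMSO library. Of the lists as fixed, 2 of 10 fibroblast markers (COL1A1 and PDGFRB), 2 of 8 endothelial ones (KDR and VWF) and 2 of 10 myeloid ones (CSF1R and CD163) were higher, and 2 myeloid ones were lower. COL1A2, DCN and LUM of fibroblasts and EMCN, PECAM1 and CLDN5 of endothelium were too low to be tested. The lower ones were ITGAM, at 0.530 ± 0.106 and 0.334 ± 0.101 FPKM, whose call was lost with the replicate block (edgeR adjusted p = 0.0636), and CD68, at 7.22 ± 2.47 and 4.12 ± 0.23 FPKM, a call lost without SAHA replicate 1 (edgeR adjusted p = 0.0597). The fibroblast list summed to means of 2.35 FPKM with DMSO and 6.58 with SAHA, the endothelial list to means of 0.261 and 2.65, and the myeloid list to 5.47 to 10.4 and 5.50 to 6.07. Whether cells of another kind contributed was not tested.

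SAHA changed most of the measured transcriptome. Of the 17277 genes tested, 11016 (63.8%) were called at an adjusted p below 0.05: 5757 (33.3%) were higher and 5259 (30.4%) lower. A change of 2-fold or more was called in 3338 (19.3%) higher and 1913 (11.1%) lower genes. The near-even split over all genes did not hold at any single level of expression. Among genes at 0.1 to under 1 FPKM with DMSO, 1676 of 4017 tested were higher and 596 lower, with a median log2 change of 0.44. At 1 to under 10 FPKM the balance was the other way, with 25.9% higher and 35.8% lower of 8372 genes. It went further at 10 to under 100 FPKM, with 20.9% higher and 46.8% lower of 3256 genes, and at 100 FPKM or more 73 of 308 genes were higher and 131 lower.

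**Figure D1:**
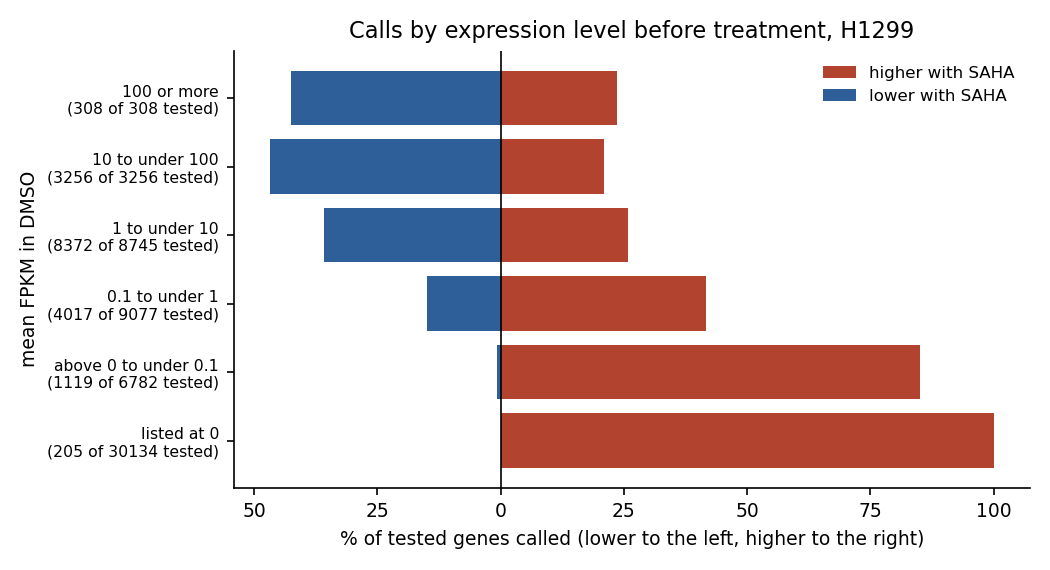
Share of tested genes called higher (right, red) or lower (left, blue) with SAHA, in 6 classes of mean FPKM with DMSO (vertical axis, with the number tested of all genes in the class). Genes at 0.1 to under 1 FPKM are mostly on the higher side, 41.7% against 14.8%, and from 1 FPKM upward the lower side is the larger one.

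The classes under 1 FPKM are in part fixed by the test, since a gene that is silent with DMSO reaches it only by rising. Of the 30134 genes listed at 0 in all DMSO libraries, 205 were tested and all 205 were higher. For this reason the protein-coding genes at 1 FPKM or more with DMSO, 10142 in number and all tested, are the base for most counts below. Of these, 2558 (25.2%) were higher and 4089 (40.3%) lower, with a median of -0.16, and at 2-fold or more 690 (6.80%) were higher and 1267 (12.5%) lower. The level and the fold also share the DMSO libraries. When the class was taken from DMSO replicate 1 and the fold from the other libraries, the shares lower were 33.1% at 1 to under 10 FPKM and 44.1% at 10 to under 100. The shares higher in these 2 classes were 23.3% and 17.9%.

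**Figure D2:**
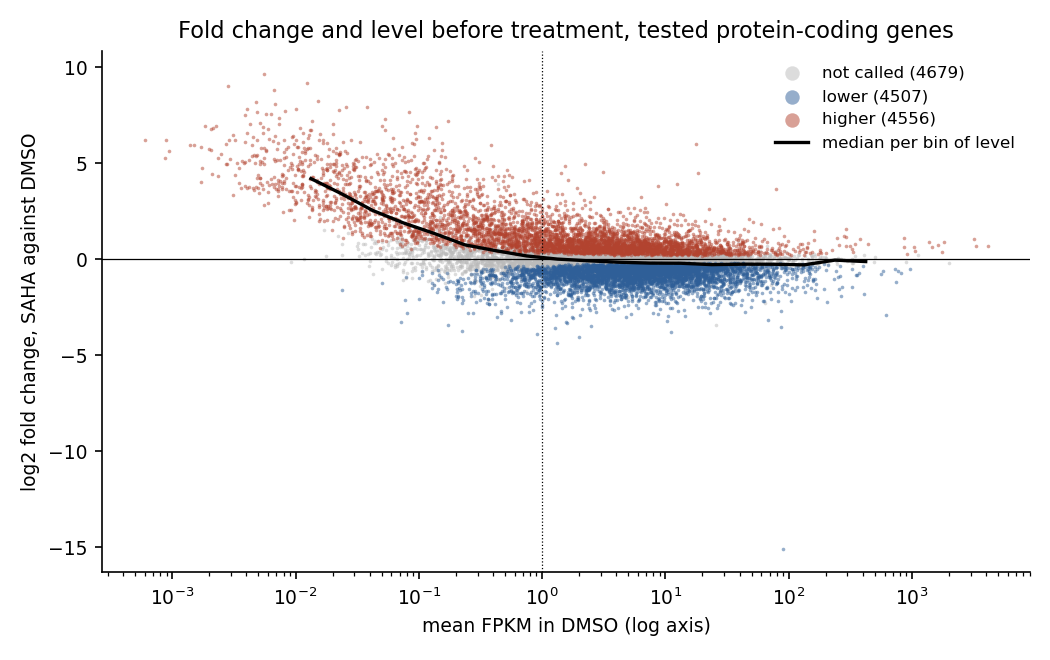
Mean FPKM with DMSO (log axis) against the log2 fold change of each tested protein-coding gene above 0 with DMSO, coloured by call, with the median per quarter-decade bin of level (black). The median lies above 0 at the lowest levels and slightly below 0 over most levels past 1 FPKM (dotted line), and the lone point near -15 is the read-through gene BLOC1S5-TXNDC5.

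The protein-coding genes that fell 2-fold or more from the highest levels included structural, RNA-binding and growth-related genes. YBX1, a nucleic acid-binding protein of mRNA particles, read 746, 789 and 712 FPKM with DMSO and 344, 345 and 360 with SAHA. G0S2, an inhibitor of the lipase ATGL, read 589, 619 and 632 and then 80.8, 82.6 and 97.7 FPKM. PFN1, the actin monomer-binding profilin, read 394, 439 and 396 and then 111, 128 and 130 FPKM. In all 3 genes the groups stood far apart and the libraries of a group lay close together. The log2 changes were -1.17 ± 0.09 for YBX1 (edgeR adjusted p = 4.4e-06), -2.88 ± 0.11 for G0S2 (adjusted p = 1.4e-07) and -1.80 ± 0.10 for PFN1 (adjusted p = 1.2e-06).

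The next 5 in that order were HIST1H2BK, NPM1, TMEM158, TUBA1B and PPIA. HIST1H2BK, a replication-type histone gene, fell from 327 ± 18 to 125 ± 14 FPKM, and NPM1, the nucleolar chaperone nucleophosmin, from 269 ± 17 to 105 ± 9 FPKM. TUBA1B, the most widely expressed alpha-tubulin, read 233, 273 and 263 FPKM with DMSO and 78.5, 87.2 and 110 with SAHA, and TMEM158, known as a RAS-induced gene, fell from 267 ± 13 to 73.9 ± 6.2 FPKM. PPIA, the cyclophilin A gene often used as a reference, fell from 232 ± 14 to 120 ± 14 FPKM. Several genes with larger absolute losses changed less than 2-fold: ENO1, the glycolytic enolase, fell by 0.72 on the log2 scale from 808 ± 27 FPKM, and HSP90AB1, the constitutive cytosolic HSP90, fell by 0.59 from 772 ± 20 FPKM. NPM1, TUBA1B and PPIA have near-identical copies elsewhere in the genome, and their counts are uncertain to that extent.

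Fewer abundant genes rose 2-fold. PRDX1, a peroxide-reducing peroxiredoxin, read 305, 269 and 308 FPKM with DMSO and 1030, 1055 and 651 with SAHA. The third SAHA library was well below the other two but still above every DMSO library (log2 1.56 ± 0.17, edgeR adjusted p = 9.2e-05). MYL12B, a regulatory myosin light chain, rose from 290 ± 14 to 679 ± 81 FPKM, and ID1, an inhibitor of basic helix-loop-helix factors, from 246 ± 13 to 559 ± 25 FPKM. CYR61, a secreted matricellular protein, read 276, 275 and 291 and then 664, 699 and 657 FPKM. For CYR61 every SAHA library lay above every DMSO library. Also among the 8 risers with the highest starting level were the mitochondrially encoded MT-CO1, MT-ND1 and MT-ND6, with MT-CO1 at 3186 ± 242 and then 7001 ± 265 FPKM.

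Outside the mitochondrial genome the largest gains in FPKM were in ANKRD1 and CTGF. ANKRD1, a nuclear ankyrin-repeat protein of stressed muscle, read 17.4, 16.9 and 19.2 FPKM with DMSO and 1233, 1081 and 1266 with SAHA (log2 5.99 ± 0.12, edgeR adjusted p = 1.4e-08). CTGF, a matricellular relative of CYR61, rose from 78.5 ± 1.8 FPKM to 1034, 1080 and 960 FPKM (log2 3.64 ± 0.09, adjusted p = 2.5e-08). With SAHA both stood among the most abundant transcripts of the cell, above GAPDH at 715 ± 82 FPKM.

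**Figure D3:**
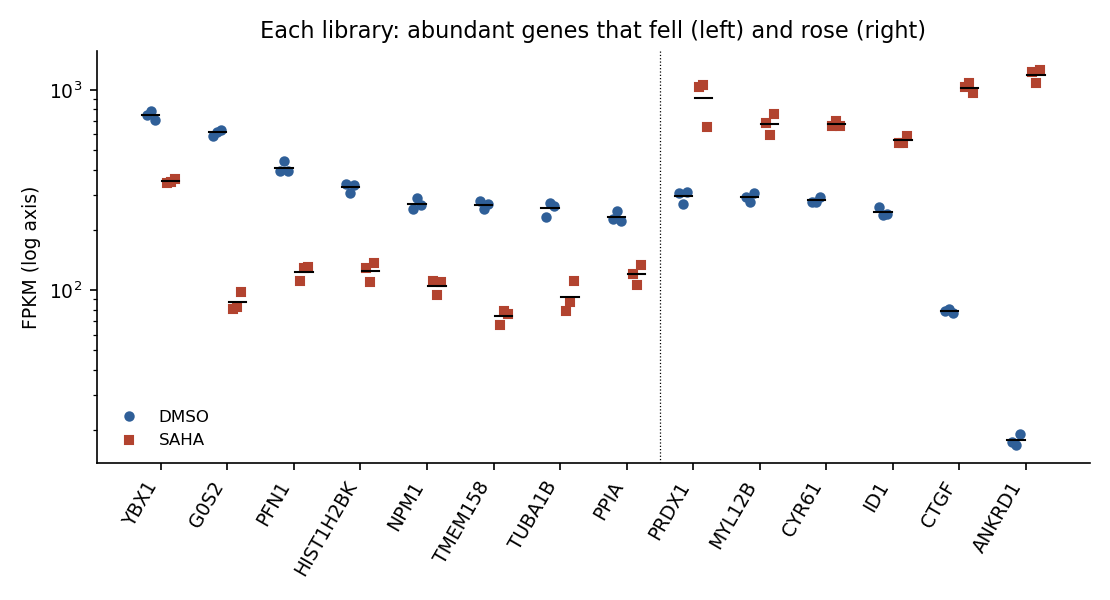
FPKM (log axis) of 14 genes in each of the 3 DMSO (blue circles) and 3 SAHA libraries (red squares), with the mean as a bar. The 8 genes left of the dotted line fell and the 6 to its right rose; in none do the groups overlap, and the widest scatter is in PRDX1 with SAHA.

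These changes moved a large part of the mRNA pool. Genes that fell 2-fold or more held 15.5 ± 0.2% of all counts with DMSO and 6.15 ± 0.19% with SAHA. Genes that rose 2-fold or more held 3.92 ± 0.08% and then 12.6 ± 0.4%. These genes were chosen by their change, so the values describe their size only. The number of genes that made up the more abundant 50% of counts differed little, 1180 ± 25 with DMSO and 1142 ± 58 with SAHA. The 100 most abundant genes held a larger share with SAHA, 18.1 ± 0.4% of counts against 16.1 ± 0.3% with DMSO. The number of protein-coding genes at 1 FPKM or more was 10131 ± 48 with DMSO and 10619 ± 102 with SAHA, and every SAHA library lay above every DMSO library. Genes with any count numbered 24192 ± 487 and 26915 ± 346.

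A set of 214 genes had no count in any DMSO library and 10 or more in each SAHA library, 180 of them protein-coding, 19 lincRNA and 6 antisense genes. Most stayed low: the median of the 180 was 0.265 FPKM with SAHA, 28 reached 1 FPKM, and the highest was STMN2, a microtubule-destabilizing protein of growing axons, at 6.23, 6.05 and 6.72 FPKM. ACTBL2, an actin-like gene, read 5.97, 5.51 and 5.77 FPKM, and DES, the muscle intermediate filament desmin, 5.31, 4.46 and 6.07. Against a floor of 3 counts per library these were at least 89.5-fold, 84.4-fold and 81.5-fold higher with SAHA. The next were C19orf71, TMEM270 and CYP4F22, an epidermal fatty acid hydroxylase, at 4.46, 2.76 and 2.75 FPKM. Of 3983 protein-coding genes at 0 in all DMSO libraries, 1927 were also at 0 in all SAHA libraries.

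The mirror rule found 3 genes with 10 or more counts in each DMSO library and none with SAHA: BLOC1S5-TXNDC5, AC067930.2 and SMG1P7. BLOC1S5-TXNDC5, an annotated read-through of neighbouring genes on chromosome 6, had 4099, 4497 and 4306 counts with DMSO and 0 in each SAHA library. It overlaps TXNDC5, a disulphide isomerase of the endoplasmic reticulum, which read 30.1, 31.2 and 32.5 FPKM and then 39.4, 40.7 and 40.4, and whose call was lost without DMSO replicate 1 (edgeR adjusted p = 0.0515). Reads from the 2 overlapping genes could have been assigned to either, so this loss is uncertain. SMG1P7 is a pseudogene and AC067930.2 an antisense gene, and their counts are uncertain too.

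A gene that was not called need not be constant, so near-constant genes were counted by their interval. The 95% interval of the fold change lay within 1.2-fold either way for 328 genes (1.90% of those tested), 315 of them (3.11%) among the 10142 protein-coding genes at 1 FPKM or more. The most abundant were RPL5, HSPA5, PCBP1, RPL19, RPS25 and EIF3I. HSPA5, the endoplasmic reticulum chaperone BiP, read 255, 244 and 247 FPKM with DMSO and 243, 258 and 240 with SAHA. PCBP1, a poly(C)-binding protein, read 235, 247 and 241 and then 233, 249 and 242 FPKM. The groups overlapped in both genes, with log2 changes of -0.08 ± 0.08 and -0.07 ± 0.08. With the replicate number as a block, 168 genes met the rule in place of 328.

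Genes commonly used as references for normalization were not a constant group. Of 27 such genes, 5 (18.5%) rose, 11 (40.7%) fell and 11 were not called, with a median of -0.16. These shares were near those of all protein-coding genes at 1 FPKM or more, 25.2% higher and 40.3% lower with a median of -0.16. As a list they thus moved much like other expressed genes. TFRC, the transferrin receptor, fell by 1.22 ± 0.08 on the log2 scale, GPI, the glycolytic isomerase, by 1.11 ± 0.08, and PPIA by 1.03 ± 0.11. GAPDH, the most widely used of them, read 1029, 1004 and 867 FPKM with DMSO and 626, 733 and 787 with SAHA (-0.50 ± 0.12, edgeR adjusted p = 0.0056). ACTB, cytoplasmic actin, read 259, 280 and 251 and then 203, 218 and 220 FPKM (-0.37 ± 0.09). The groups did not overlap for GAPDH or ACTB. The higher side included CHMP2A, of the ESCRT machinery (0.75 ± 0.14), SDHA, of the respiratory chain (0.51 ± 0.09), RAB7A and EMC7. The calls of EMC7 and GUSB were lost with the replicate block (edgeR adjusted p = 0.0541 and 0.0539), and that of RAB7A without DMSO replicate 2 or 3 or SAHA replicate 2 (adjusted p from 0.0755 to 0.0978). TBP, the TATA-binding protein (0.05 ± 0.09), PSMB4 (-0.01 ± 0.09) and YWHAZ (-0.09 ± 0.08) were not called and lay close to 0. B2M, the light chain of MHC class I, was not called and its libraries scattered, at 18.3, 18.3 and 9.81 FPKM with DMSO.

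**Figure D4:**
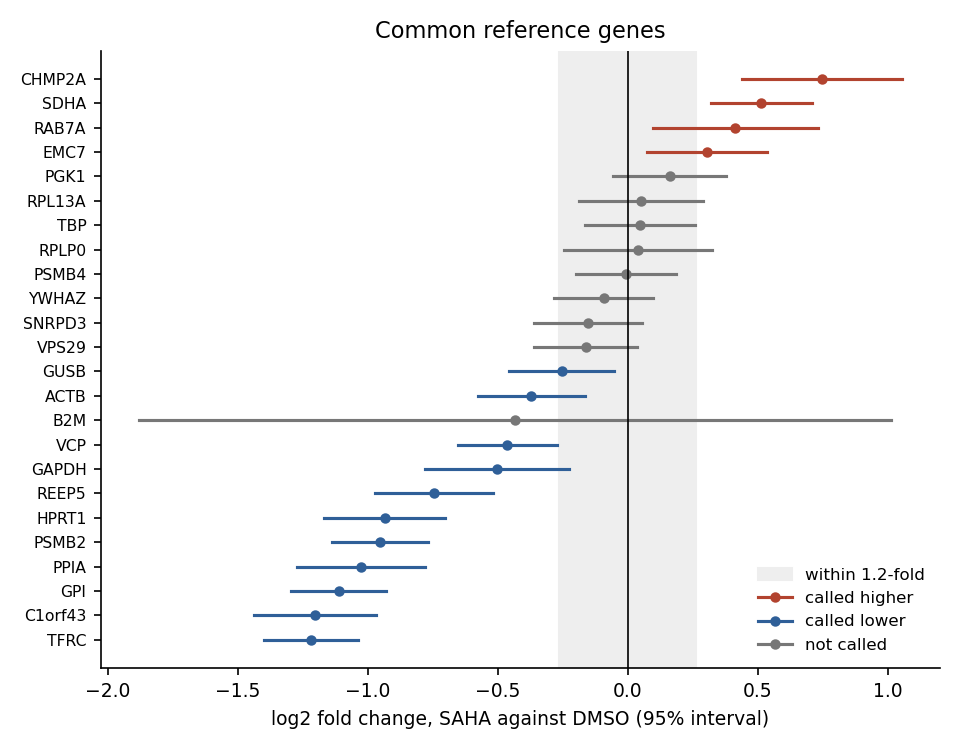
Log2 fold change with its 95% interval for the named reference genes, coloured by call, with the range of 1.2-fold either way shaded. TFRC at -1.22 and CHMP2A at 0.75 mark the ends, and B2M, whose replicates were uneven, has the longest bar.

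Nucleotide synthesis enzymes at 1 FPKM or more were lower in 19 of 25 and higher in 1, with a median of -0.97, against 40.3% and 25.2% of all protein-coding genes at that level. TYMS, the thymidylate synthase that makes dTMP, read 73.3, 96.0 and 91.9 FPKM with DMSO and 11.6, 15.6 and 14.8 with SAHA (log2 -2.70 ± 0.16, edgeR adjusted p = 2.6e-06). CAD, the enzyme of the first steps of pyrimidine synthesis, read 18.2, 18.5 and 17.4 and then 4.70, 5.81 and 4.57 FPKM. CMPK1, a pyrimidine monophosphate kinase, fell from 23.0 ± 0.8 to 5.93 ± 0.24 FPKM. The groups were separate in all 3. UMPS, the last enzyme of UMP synthesis, was not called (0.09 ± 0.09), and ADSSL1, the muscle isoform of adenylosuccinate synthase, was the one that rose (1.16 ± 0.12).

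Serine and folate one-carbon enzymes, which share members such as TYMS with that list, were lower in 15 of 17 and higher in none, with a median of -0.60. The base was the same, 40.3% lower and 25.2% higher of all protein-coding genes at 1 FPKM or more. MTHFD1L, of the mitochondrial folate pathway, fell from 16.4 ± 0.7 to 5.15 ± 0.14 FPKM. The 8 subunits of TRiC, the chaperonin that folds actin and tubulin, were lower in 7, with CCT5 falling most (65.8 to 36.6 FPKM, -0.91 ± 0.08). CCT2 was the exception at 80.5, 77.6 and 81.9 FPKM with DMSO and 83.5, 73.5 and 84.1 with SAHA. None of the 8 changed 2-fold. Polyamine enzymes were mixed, 4 higher and 2 lower of 10: SRM, spermidine synthase, fell from 65.3 to 24.5 FPKM (-1.48 ± 0.08). PAOX, a polyamine oxidase below 1 FPKM with DMSO and so outside these 10, rose from 0.763 to 2.46 FPKM.

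Central energy metabolism was less one-sided, beside 25.2% higher and 40.3% lower of all protein-coding genes at 1 FPKM or more. Citric acid cycle genes were higher in 3 and lower in 6 of 18, with a median of 0.00: IDH2, the mitochondrial NADP-dependent isocitrate dehydrogenase, rose from 2.72 to 8.36 FPKM (1.55 ± 0.11), and SUCLG2, a succinyl-CoA ligase subunit, fell from 13.1 to 5.17 FPKM (-1.41 ± 0.11). Fatty acid synthesis and desaturation genes split 8 and 8 of 18, and within the FADS cluster on chromosome 11 FADS3 rose (2.56 ± 0.13) while FADS2, a desaturase of polyunsaturated fatty acids, fell (-1.54 ± 0.15). Iron handling genes were higher in 5 and lower in 6 of 16, with a median of -0.03. Among them TFRC, the importer, fell. The exporter SLC40A1 (ferroportin), below 1 FPKM with DMSO and so outside these 16, rose from 0.817 to 2.79 FPKM (1.69 ± 0.18). HMOX1, the haem-degrading oxygenase, read 10.0, 10.4 and 9.17 FPKM with DMSO and 27.7, 30.1 and 29.5 with SAHA.

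DEAD and DEAH box helicases were lower in 27 and higher in 6 of 49 (median -0.39), and RNA exosome and nonsense-mediated decay genes were lower in 11 and higher in 2 of 21 (median -0.49), against 40.3% lower and 25.2% higher of all protein-coding genes at that level and their median of -0.16. SMG9, a regulator of the decay kinase SMG1, read 31.1, 31.4 and 31.7 FPKM with DMSO and 9.36, 9.61 and 10.5 with SAHA (-1.75 ± 0.08, edgeR adjusted p = 4.6e-07). SMG1 itself fell from 4.67 ± 0.32 to 2.25 ± 0.39 FPKM, and DDX46, a splicing helicase, fell by 1.82 ± 0.12. Translation initiation factors were lower in 22 (42.3%), close to the share of all protein-coding genes, and higher in 5 (9.62%) of 52, with a median of -0.22. EIF4G2, a scaffold of cap-independent initiation, fell from 29.3 to 8.95 FPKM (-1.78 ± 0.09), while EIF4EBP2, a repressor of cap-dependent initiation, rose (0.67 ± 0.07). Cytosolic tRNA synthetases were divided, 6 higher and 10 lower of 20, with RARS for arginine higher (0.97 ± 0.10) and LARS for leucine lower (-1.08 ± 0.09). Ubiquitin-specific proteases were lower in 25 and higher in 4 of 42 (median -0.35).

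The transcription machinery moved by subunit. RNA polymerase II subunits were higher in 3 and lower in 4 of 12. POLR2A, the catalytic subunit, read 40.1, 38.8 and 38.8 FPKM with DMSO and 18.2, 23.2 and 19.1 with SAHA (-1.03 ± 0.10), whereas POLR2L, a small subunit shared with the other polymerases, read 140, 143 and 146 and then 228, 287 and 294 FPKM (0.85 ± 0.11). Neither pair of groups overlapped. Mediator subunits were even, 10 higher and 10 lower of 33, with MED12, of the kinase module, falling from 10.5 to 3.16 FPKM. TFIID subunits were lower in 9 and higher in 3 of 17. MEPCE, the capping enzyme that stabilizes the 7SK RNA of the P-TEFb-inhibiting particle, read 27.4, 25.2 and 27.9 and then 6.35, 4.84 and 4.84 FPKM (-2.40 ± 0.11, edgeR adjusted p = 3.8e-07). Genes named ZNF, mostly zinc finger factors, were lower in 117 (45.0%) and higher in 33 (12.7%) of 260, with a median of -0.35, beside 40.3% lower and 25.2% higher of all protein-coding genes at that level.

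Other families of DNA-binding factors differed in direction, beside 25.2% higher and 40.3% lower of all protein-coding genes at 1 FPKM or more. ETS factors were lower in 11 and higher in 2 of 16: ELK3 fell from 25.9 ± 1.4 to 6.60 ± 0.89 FPKM, ELK4 from 3.31 ± 0.20 to 1.22 ± 0.31 and GABPA, an activator of mitochondrial and ribosomal genes, from 10.2 ± 0.9 to 4.25 ± 0.97, while ETS2 rose from 2.59 to 5.79 FPKM. Forkhead factors were higher in 5 and lower in 4 of 17. FOXM1, an activator of mitotic genes, fell from 12.4 ± 0.7 FPKM to 2.54, 2.81 and 2.70 (-2.27 ± 0.09). FOXO6, a forkhead factor typical of brain and outside these 17 by its level with DMSO, went from 0.186, 0.0976 and 0.0799 to 9.62, 11.5 and 8.96 FPKM (6.29 ± 0.24). Neural and inhibitory bHLH factors were higher in 5 and lower in 5 of 12, with a median of -0.08. All 4 inhibitory ID genes rose, ID1 as given above, ID2 from 3.66 ± 0.37 to 10.3 ± 3.8 FPKM (1.42 ± 0.27), ID3 from 91.8 ± 1.6 to 221 ± 5 FPKM and ID4 from 1.55 ± 0.13 to 13.1 ± 1.3. TCF12, an E-protein that ID proteins bind, fell from 3.52 to 1.25 FPKM. Among clock genes, 6 of 17 were higher and 6 lower, with the activator ARNTL up (1.97 ± 0.11) and the repressor PER3 down (-1.87 ± 0.16).

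**Figure D5:**
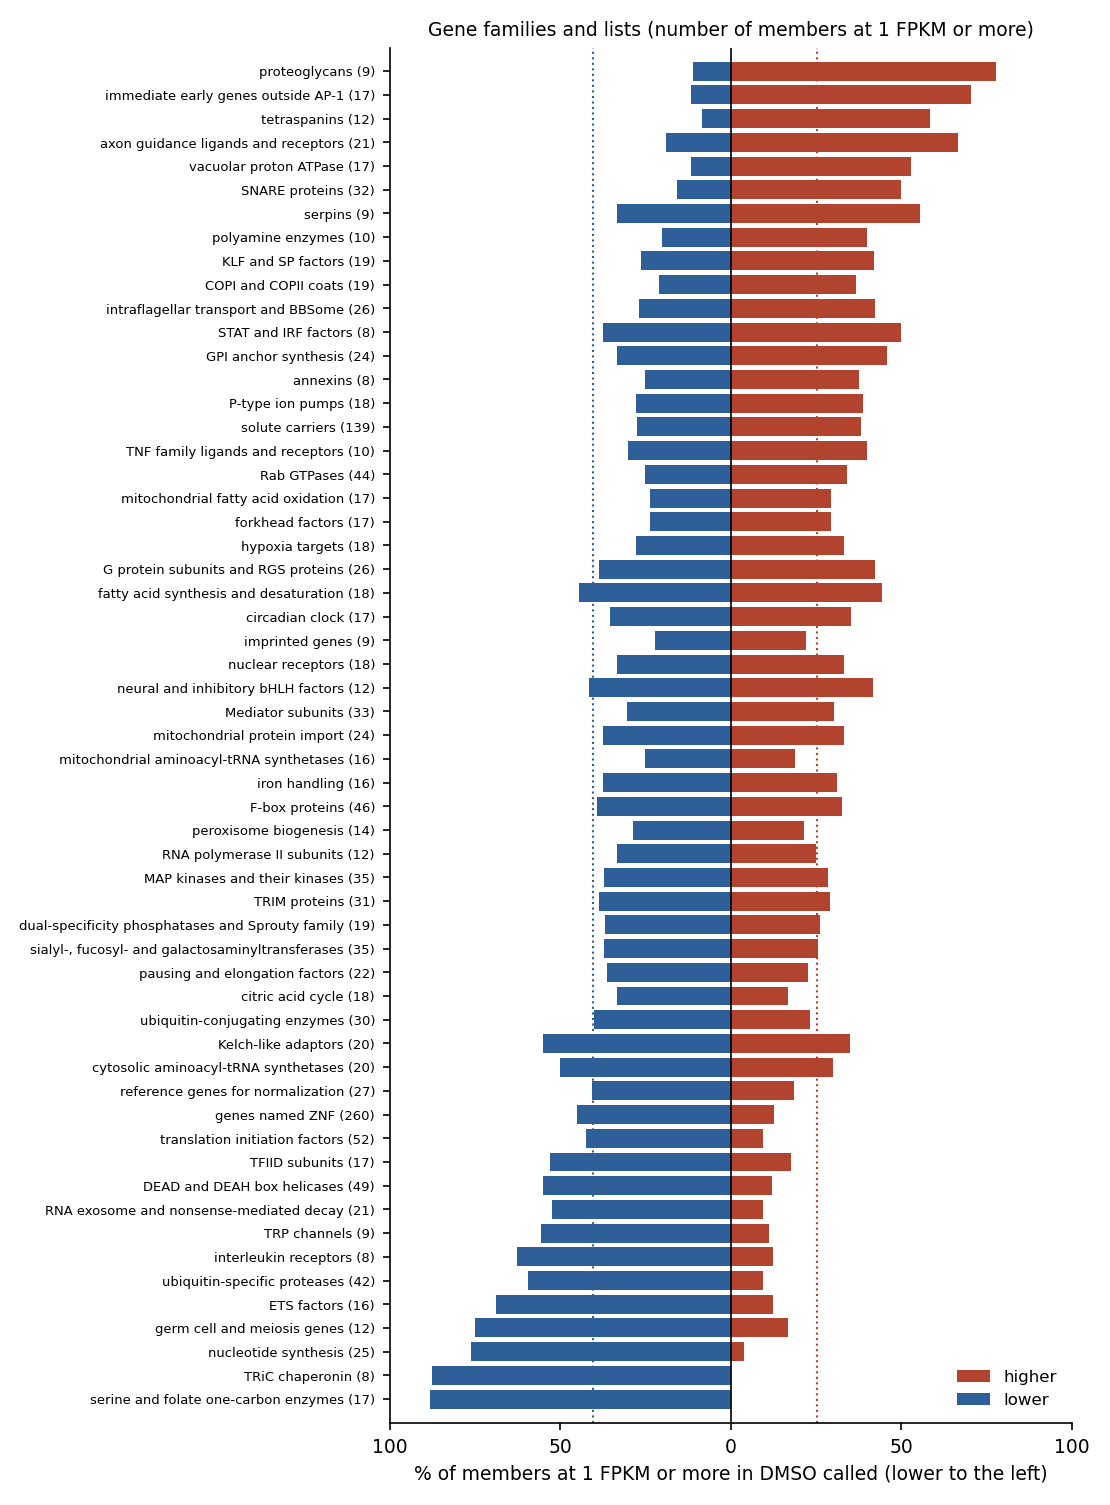
Percent of members called higher (right, red) or lower (left, blue) among members at 1 FPKM or more with DMSO, for families and lists with 8 or more such members (number in parentheses), ordered by the difference. Dotted lines mark all protein-coding genes at that level, 25.2% higher and 40.3% lower; proteoglycans and immediate early genes are at the top, and one-carbon enzymes, TRiC and nucleotide synthesis at the bottom.

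Immediate early genes outside the AP-1 family, which respond to growth signals without new protein synthesis, were higher in 12 and lower in 2 of 17 at 1 FPKM or more (median 0.69), beside 25.2% higher and 40.3% lower of all protein-coding genes. Besides CTGF and CYR61, IER3, a stress-induced regulator of survival, read 27.6, 25.7 and 28.0 FPKM with DMSO and 92.1, 93.9 and 101 with SAHA. KLF10, a TGF-beta-induced repressor, fell from 13.3 to 7.51 FPKM (-0.89 ± 0.10). Dual-specificity phosphatases and Sprouty proteins, which shut off MAP kinase signalling, were higher in 5 and lower in 7 of 19. DUSP1 read 14.2, 12.5 and 13.1 and then 71.1, 73.3 and 68.6 FPKM (2.35 ± 0.09), whereas SPRY4 fell from 20.6 to 10.4 FPKM.

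Proteoglycans, the glycosaminoglycan-bearing proteins of surface and matrix, were higher in 7 and lower in 1 of 9. Of all protein-coding genes at 1 FPKM or more, 25.2% were higher and 40.3% lower. GPC1, a glypican, read 5.72, 5.51 and 5.37 FPKM with DMSO and 21.7, 24.8 and 21.5 with SAHA (1.97 ± 0.09). SDC4, a syndecan of focal adhesions, rose from 43.7 ± 1.4 to 136 ± 6 FPKM, and AGRN, a basement membrane proteoglycan, from 15.3 ± 1.7 to 45.3 ± 6.6. The lower one was GPC6 (-0.50 ± 0.18), whose call was lost with the replicate block (edgeR adjusted p = 0.0502). Axon guidance ligands and receptors were higher in 14 and lower in 4 of 21 at that level, and over all 63 tested, which include genes that reach the test only with SAHA, in 48 and 5. EFNA3, an ephrin, read 1.62, 1.36 and 1.39 and then 15.6, 17.4 and 15.3 FPKM (3.39 ± 0.13). EFNB1 rose from 7.01 ± 0.32 to 22.1 ± 2.1 FPKM, and UNC5B, a netrin receptor, from 0.0188, 0 and 0 to 1.52, 1.61 and 1.23 FPKM. SEMA4C, a semaphorin, was among those that fell (-0.77 ± 0.11).

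The next families are again set beside 25.2% higher and 40.3% lower of all protein-coding genes at 1 FPKM or more. Tetraspanins were higher in 7 and lower in 1 of 12, the latter being TSPAN4 (-0.69 ± 0.10), and TSPAN7, below 1 FPKM with DMSO, rose from 0.244 to 2.74 FPKM (3.42 ± 0.23). Receptor-type tyrosine phosphatases were higher in 3 and lower in 1 of 6, the lower one being PTPRF (-0.70 ± 0.09). PTPRU, outside these 6 by its level with DMSO, read 0.0801, 0.0659 and 0.0378 FPKM and then 4.89, 5.52 and 4.94 (6.31 ± 0.20). Serpins were higher in 5 and lower in 3 of 9, and SERPINB7, a protease inhibitor of epithelia, read 1.93, 1.82 and 2.05 and then 27.4, 25.1 and 27.8 FPKM (3.72 ± 0.10). Solute carriers were higher in 53 and lower in 38 of 139. In contrast, interleukin receptors were lower in 5 and higher in 1 of 8, with IL27RA falling from 12.6 to 3.31 FPKM.

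Membrane traffic families differed in how many members were higher, beside 25.2% higher and 40.3% lower of all protein-coding genes at 1 FPKM or more. SNARE proteins, which drive vesicle fusion, were higher in 16 and lower in 5 of 32 (median 0.31), and only 3 changed 2-fold, all upward. YKT6, a prenylated SNARE, read 34.1, 35.2 and 36.6 FPKM with DMSO and 64.2, 70.1 and 71.8 with SAHA (0.89 ± 0.09), STX11, of lymphocyte secretion, rose from 4.62 to 12.9 FPKM (1.41 ± 0.11), and SNAP25, of synaptic vesicle release, from 2.16 ± 0.18 to 4.60 ± 0.38. Subunits of the vacuolar proton ATPase, which acidifies lysosomes and endosomes, were higher in 9 and lower in 2 of 17 without any 2-fold change. ATP6V0D1 rose by 0.86 ± 0.12 on the log2 scale, ATP6V1B2 from 7.43 ± 0.46 to 13.5 ± 0.4 and ATP6V1G1 from 66.2 ± 3.4 to 98.9 ± 3.8. Rab GTPases were higher in 15 and lower in 11 of 44 (median 0.07), with RAB11B, of recycling endosomes, lower (-1.21 ± 0.09). COPI and COPII coat genes were higher in 7 and lower in 4 of 19.

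Germ cell and meiosis genes, a group that tumour lines can express out of place, were lower in 9 and higher in 2 of 12. The shares of all protein-coding genes at 1 FPKM or more were 40.3% lower and 25.2% higher. HORMAD1, of the meiotic chromosome axis, read 5.70, 5.85 and 5.85 FPKM with DMSO and 1.75, 1.69 and 1.63 with SAHA (-1.85 ± 0.11), and SYCP2, of the synaptonemal complex, fell from 3.53 to 0.855 FPKM. TDRKH, a piRNA pathway gene, was higher (0.40 ± 0.10). As a check of a gene known to respond to deacetylase inhibitors, CDKN1A, the p21 gene, rose from 14.5 ± 1.2 to 63.3 ± 3.1 FPKM.

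Non-coding classes differed in direction. LincRNA genes were higher in 325 and lower in 118 of 689 tested and antisense genes in 361 and 136 of 864, but their median level with DMSO was 0.71 FPKM in both classes, below the 3.19 FPKM of tested protein-coding genes. At 1 FPKM or more the balance was closer: 92 higher (34.1%) and 77 lower (28.5%) of 270 lincRNA genes. Antisense genes at that level were higher in 119 (34.1%) and lower in 90 (25.8%) of 349. Processed pseudogenes at that level were higher in 73 (11.1%) and lower in 210 (32.0%) of 656. Of all protein-coding genes at 1 FPKM or more, 25.2% were higher and 40.3% lower. The labels contradict each other on whether the libraries kept strand, so reads of an antisense gene and its partner may be mixed. Of 574 antisense genes tested with a coding gene they overlap, 229 were called together with that gene. Among these 229 pairs 62.9% of the antisense genes and 29.7% of the coding genes were higher. The direction was the same in 133 pairs (58.1%), with 58 higher and 75 lower. In 86 pairs the antisense gene was higher and the coding gene lower, and in 10 the reverse held. Whether these counts differ from what the shares higher alone would give was not tested. ZFAS1, a host of small nucleolar RNAs, read 46.1, 45.8 and 45.8 FPKM with DMSO and 31.7, 34.4 and 38.5 with SAHA (-0.46 ± 0.10). SNHG6, another such host, fell by 0.85 ± 0.08, and SNHG19 rose by 0.39 ± 0.10. EEF1A1P5, a processed copy of the elongation factor gene, was listed at 4780 ± 114 and 3635 ± 224 FPKM. It is nearly identical to its parent, so its value is uncertain.

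Genes that rose were shorter than genes that fell. Among the protein-coding genes at 1 FPKM or more, the median genomic span was 19.4 kb for those that rose 2-fold or more, 39.2 kb for those that fell as much and 29.6 kb for those not called. Of genes under 5 kb, 38.2% were higher and 28.2% lower, against 21.7% and 46.5% at 50 to 100 kb. The longest genes, at 200 kb or more, were again more even, with 30.6% higher and 34.8% lower. The risers also started lower, at a median of 3.15 FPKM against 6.61 FPKM for the fallers. Of all these genes, 40.3% were lower and 25.2% higher. Outside the mitochondrial genome, the share lower ran from 36.4% on chromosome 20 to 53.8% of 106 on chromosome 21. The next highest share lower was 46.7%, on chromosome 13. The share higher ran from 91 of 456 on chromosome 16 to 32.2% on chromosome 6. Differences between chromosomes were not tested. All 13 mitochondrially encoded genes were higher.

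Promoter windows, taken from RefSeq on GRCh38.p14 and running from 250 bases before to 50 after the annotated start, were at hand for 82.1% of these protein-coding genes. The CHR motif TTTGAA, a cell-cycle element often paired with CCAAT boxes in promoters of mitotic genes, was searched on both strands. It was in 16.3% of the 1036 windows of genes that fell 2-fold or more, 8.38% of the 2852 not called and 132 of the 2063 that rose. The share was 9.08% over all protein-coding genes at 1 FPKM or more and 15.2% over all windows of the table. CCAAT and TTTGAA stood together in 9.94% of the 2-fold fallers, 5.25% of all genes that fell, 3.75% of genes not called and 2.52% of those that rose. They did so in 4.06% of all protein-coding genes at 1 FPKM or more and 5.90% of all windows. CCAAT with or without TTTGAA was in similar shares of the 2-fold fallers, genes not called and those that rose, 39.0%, 38.7% and 38.4%. Seen the other way, 179 of 338 genes with both motifs were lower and 52 higher, against 1975 and 1191 of 4781 with neither. With TTTGAA alone 206 of 418 were lower and 80 higher, and with CCAAT alone 1051 and 740 of 2789. The shares lower by 2-fold or more were 30.5% with both, 15.8% with TTTGAA alone, 10.8% with CCAAT alone and 11.8% with neither. The GC box GGGGCGGGG was in 34.4% of windows of genes that rose, 29.0% of those not called and 26.1% of those that fell. Its share was 29.2% over all protein-coding genes at 1 FPKM or more. Other motifs differed too: the ETS motif CCGGAAG was in 14.8% of 2-fold fallers, 23.7% of genes not called and 21.7% of those that rose. The median GC content of the windows in these 3 sets was 65.0%, 65.7% and 67.0%. Its part in the motif shares was not tested. Windows were at hand for only 77.0% of the genes that rose 2-fold and 66.1% of the genes switched on, so no such share is given for them.

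The windows before the start of 3 fallers are shown as examples of abundant genes that carry both motifs, with CCAAT and TTTGAA (or their reverse complements) in capitals, written along the gene's strand. Each gene has 1 window, though it may have other starts. TUBA1C, an alpha-tubulin, fell from 168 ± 7 to 72.6 ± 7.9 FPKM. Its window lies inside the span of the gene in the deposited annotation, chr12:49188736-49274603. Which start these cells used was not tested. CDC20, the activator of the anaphase-promoting complex, fell from 157 ± 9 to 81.2 ± 9.9 FPKM. WDR34, a dynein-2 intermediate chain of cilia, fell from 71.3 ± 4.8 to 35.7 ± 1.5 FPKM.
TUBA1C, chr12:49227676-49227925, plus strand: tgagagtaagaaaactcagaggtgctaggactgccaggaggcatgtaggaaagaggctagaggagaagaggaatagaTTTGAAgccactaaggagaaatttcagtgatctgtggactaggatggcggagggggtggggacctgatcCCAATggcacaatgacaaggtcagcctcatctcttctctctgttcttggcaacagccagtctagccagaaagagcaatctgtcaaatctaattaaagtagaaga
CDC20, chr1:43358731-43358980, plus strand: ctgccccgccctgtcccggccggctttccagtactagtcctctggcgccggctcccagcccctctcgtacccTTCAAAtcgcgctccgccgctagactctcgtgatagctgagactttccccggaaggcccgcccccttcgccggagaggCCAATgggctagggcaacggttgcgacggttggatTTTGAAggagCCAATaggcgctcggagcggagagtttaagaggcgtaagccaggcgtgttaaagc
WDR34, chr9:128656848-128657097, minus strand: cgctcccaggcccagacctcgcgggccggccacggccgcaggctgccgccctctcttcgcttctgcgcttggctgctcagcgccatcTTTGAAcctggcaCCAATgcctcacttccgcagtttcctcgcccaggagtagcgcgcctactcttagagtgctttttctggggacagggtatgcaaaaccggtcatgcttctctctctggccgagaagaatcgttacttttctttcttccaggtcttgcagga
CDC20 had 2 matches of each motif and the other 2 genes 1 of each. A match is a description of the letters and not evidence that a factor binds there.

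For ANKRD1 and CTGF, the genes with the largest gains in FPKM outside the mitochondrial genome, the same windows are shown with GGAATG, the motif known for TEAD factors, in capitals. It matched 3 times before the start of CTGF and 2 times before that of ANKRD1, while 0.564% of 8326 windows of tested protein-coding genes at 1 FPKM or more held 2 or more matches and 0.0480% held 3 or more. The motif was set for CTGF and ANKRD1 in advance and not found by comparing motifs. These shares therefore describe how common the letters are and test nothing about TEAD factors.
CTGF, chr6:131951373-131951622, minus strand: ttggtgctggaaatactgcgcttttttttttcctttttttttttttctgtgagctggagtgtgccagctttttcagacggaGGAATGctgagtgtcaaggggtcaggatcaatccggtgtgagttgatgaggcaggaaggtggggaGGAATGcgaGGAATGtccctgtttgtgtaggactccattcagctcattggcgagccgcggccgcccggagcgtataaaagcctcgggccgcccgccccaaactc
ANKRD1, chr10:90921088-90921337, minus strand: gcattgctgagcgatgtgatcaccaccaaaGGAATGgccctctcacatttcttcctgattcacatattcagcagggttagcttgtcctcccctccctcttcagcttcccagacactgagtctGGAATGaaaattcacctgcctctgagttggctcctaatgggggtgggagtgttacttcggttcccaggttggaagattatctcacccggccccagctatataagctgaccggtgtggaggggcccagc
Over all genes the motif did not follow the direction of change: GGAATG was in 11.3% of windows of genes that rose, 10.5% of those that fell and 9.40% of those not called, against 14.0% of all windows of the table.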

How the data were processed

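RNA was sequenced from H1299 cells after 24 h with SAHA or DMSO, 3 libraries per group. The authors deposited a table with raw counts and FPKM for each library, per the file headers. The submitters' processing notes name fastp, HISAT2 2.1.0, StringTie 1.3.3b and GRCh38, without saying which tool counted reads or whether strand was used. Per the labels' protocols, polyadenylated RNA was selected. Columns named NC were taken as the DMSO group of this line.

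Genes were kept by filterByExpr at a minimum count of 10 and a minimum total of 15. The 17277 left were scaled by TMM and fitted with the robust quasi-likelihood model of edgeR 4.0.16 (R 4.3.3). P-values were adjusted by Benjamini-Hochberg over all of them. SE is the log2 fold change over the root of F. On simulated data with 200 of 15838 genes changed 2-fold, 98.0% were recovered and 3.45% of calls were false. The changed genes were well counted and equally up and down, and all genes had the same dispersion. In the real data 63.8% of genes tested were called, so these shares do not give the error among those calls. Replicate pairs differed beyond sampling noise. The labels give the repeat number as a batch, so same-numbered libraries were treated as pairs for the block; their deviations correlated at -0.016, 0.031 and -0.064 over 12346 genes, within the range of the other pairs (-0.134 to 0.146).

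The 74 families and lists were described by counts and medians only. Members and lists were chosen with earlier results of these data known. Genes were named by rule: the 6 genes switched on with the highest FPKM, the 8 highest-level 2-fold fallers and risers, the 8 largest gains and losses, the 6 most abundant near-constant genes, the largest change each way per family at a mean log2 CPM of 2 or more, marker and reference lists, and 1 gene each way per non-coding class. TXNDC5, CAD, CMPK1, UMPS, MTHFD1L, CCT2, HMOX1, SMG1, ELK4, GABPA, ID2, ID3, ID4, IER3, DUSP1, SDC4, AGRN, EFNA3, EFNB1, YKT6, SNAP25, ATP6V1B2, ATP6V1G1, HORMAD1, TUBA1C, CDC20 and WDR34 were chosen after their values were seen. The 3 fallers whose promoter windows are shown had the highest DMSO FPKM among 83 genes that fell 2-fold or more with both motifs before the start, with chromosome 8 left out.

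Results for some items are not reported here.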

Additional observations from a re-analysis of the deposited data

How the results depend on the processing

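Alternatives were DESeq2 1.42.0, its size factors, column totals alone, no filter, the replicate block, each library left out and other level classes. Called genes ranged from 10346 to 12296, no gene was called in the opposite direction, and scaling moved the median of all genes by at most 0.07 (log2). The replicate block called 10616 genes. Near-constant genes numbered 179 with DESeq2, 168 with the replicate block and 72 to 307 when a library was left out, where fewer samples widen the intervals. Without the filter 593 lincRNA genes were higher. With classes by CPM, 908 genes were lower at 1 to under 10, 2039 higher and 3053 lower at 10 to under 100, and 419 higher and 1254 lower at 100 or more. Besides the calls given above, the block changed that of RPL9P9 (adjusted p = 0.0629) and no other named gene. Genes close to 0 changed sign without being called: EIF3I without the filter (-0.00638) and with the block (-0.000853), RPL19 without the filter (-0.00208), PSMB4 with DESeq2 (0.00851), its size factors (0.00848) and column totals (0.0631), and, with column totals, RPS25 (0.0479), CCT2 (0.00763) and PCBP1 (0.00163). With a library left out the log2 changes ran from -0.0824 to 0.0771 for EIF3I, -0.114 to 0.161 for RPLP0, -0.0996 to 0.0717 for RPL19, -0.0224 to 0.0748 for TBP, -0.141 to 0.0378 for RPS25, -0.0635 to 0.0898 for RPL5, -0.224 to 0.0344 for KRT7, -0.0672 to 0.136 for RPL13A and -0.0820 to 0.0309 for PSMB4. Depth limits the genes under 1 FPKM, where calls rest on few counts in DMSO.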
